A study of Rattus norvegicus with 16 samples.

Results

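The genes described here encode the MHC class II route of antigen presentation in the rat, and their RNA was lower on average in livers of SPI-fed than of CAS-fed obese Zucker rats. They were taken by symbol from a list of 8 (Cd74, RT1-Ba, RT1-Bb, RT1-Da, RT1-Db1, RT1-DMa, RT1-DMb and Ciita). Of the 9645 genes in the deposited table, 5 carried one of these symbols, and RT1-DMa, RT1-DMb and Ciita were not analysed here. All 5 passed the filter on low values, which kept 8004 genes.

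The SPI-fed rats were male obese Zucker rats given a diet with soy protein isolate (SPI) as its protein, and the control rats were male obese Zucker rats given a diet with casein (CAS). Rats of both diets were bought at 6 weeks of age, kept singly and fed freely for 16 weeks, and no lean rats were included. The SPI contained isoflavones, so that the diets differed in more than the protein source. RNAseq was done on 1 liver library per rat, 8 rats per diet, numbered SPI 1 to SPI 8 and CAS 1 to CAS 8.

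MHC class II molecules are pairs of an alpha and a beta chain that carry peptides from taken-up proteins to the surface of dendritic cells, macrophages and B cells, where CD4+ T cells read them. In the rat the genes are called RT1. RT1-Ba and RT1-Bb encode the alpha and beta chain of the RT1.B molecule, the counterpart of human HLA-DQ, and RT1-Da and RT1-Db1 those of RT1.D, the counterpart of HLA-DR. Cd74 encodes the invariant chain, which fills the groove of a new class II molecule and guides it to the endosome, where proteases cut the chain away and a peptide takes its place. In the liver, Kupffer cells, dendritic cells and sinusoidal endothelial cells are known to make class II molecules, and interferon gamma raises these genes through the coactivator CIITA.

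Class II genes and Cd74 are known to share a promoter module with an X box and a Y box, which bind RFX and NF-Y. The stretch that holds these letters is shown for each of the genes because it is a feature that the choice of genes did not use. The sequences are those of RefSeq in the build GRCr8, which is not the build of the expression files, and they run 5′ to 3′ on the strand of the gene. Capitals mark the matched letters, the first block for the X box and the second for the Y box.
Cd74, chr18:56526978-56527031, plus strand: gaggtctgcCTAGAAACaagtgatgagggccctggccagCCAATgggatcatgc
RT1-Ba, chr20:4576969-4577028, plus strand: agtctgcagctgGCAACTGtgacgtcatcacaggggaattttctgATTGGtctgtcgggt
RT1-Bb, chr20:4604165-4604223, minus strand: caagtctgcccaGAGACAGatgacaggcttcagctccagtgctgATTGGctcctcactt
RT1-Da, chr20:4515321-4515380, plus strand: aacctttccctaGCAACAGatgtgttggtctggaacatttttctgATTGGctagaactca
RT1-Db1, chr20:4560228-4560286, minus strand: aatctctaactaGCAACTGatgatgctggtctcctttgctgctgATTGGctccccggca

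In the 4 chain genes the letters GNNACNG were followed by ATTGG, counted from first base to first base, 33 bases on in RT1-Ba and RT1-Da and 32 bases on in RT1-Bb and RT1-Db1. Relative to the gene's start, the X letters began at -76 in RT1-Ba, -93 in RT1-Bb, -82 in RT1-Da and -112 in RT1-Db1. The promoter of RT1-DMa held the same pair 33 bases apart. Searched on both strands, the pair at 32 or 33 bases occurred in 119 of 33469 RefSeq promoters of 300 bases (0.356%) and in 5 of the 6 promoters matched to the 8 symbols. The pair and its spacing were chosen after these sequences had been read, so the count is a description. Cd74 was the promoter without the pair. It held another form of the X letters, CTAGNAAC, at -219, and ATTGG on the opposite strand, printed there as CCAAT. CTAGNAAC occurred in 3.59% and ATTGG in 37.5% of all promoters, and RT1-Da and RT1-Db1 also held CTAGNAAC, where it overlaps the X letters printed above. RT1-Ba also carried TGACGTCA, the palindrome known to bind CREB, directly after its X letters, a sequence found in 1.83% of promoters.

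The libraries held 14901365 to 21517766 reads in SPI-fed and 17602306 to 21632979 in CAS-fed rats. On the first principal component (19.1% of the variance) SPI livers lay between 10.4 and 26.7, CAS 4, CAS 6 and CAS 7 lay at 2.73, 1.18 and 1.19, and the other CAS livers lay between -41.3 and -26.1. Alb, the albumin gene that defines hepatocytes, was abundant in every library, with normalized counts of 3305839 to 5251522 in SPI-fed and 2790904 to 4815303 in CAS-fed rats, as the label of liver requires. Values below are normalized counts, that is reads of a gene divided by 1 size factor per library. They are not divided by gene length, so they compare livers and not genes. The RT1 genes belong to families of similar and polymorphic copies that may share reads, so the split among RT1 genes, such as that of RT1-Db1 and RT1-Db2, is uncertain.

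The invariant chain gene Cd74 had a lowest, median and highest value of 109, 132 and 178 in SPI-fed rats, against 171, 266 and 646 in CAS-fed rats. The diets overlapped only where SPI 6, at 178, exceeded CAS 6, at 171. Cd74 averaged 134 ± 22.3 in SPI-fed and 348 ± 177 in CAS-fed rats (SD, n = 8 each), so that SPI livers held 38.5% of the CAS mean. The log2 difference, SPI minus CAS, was -1.22 (standard error 0.23, 95% interval -1.69 to -0.74), with an adjusted p of 0.00331 from limma over all 8004 genes tested. Cd74 ranked 66 among those genes by p.

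Both chains of RT1.B were also lower in SPI-fed rats. RT1-Ba, the alpha chain, lay at 243, 308 and 395 (lowest, median, highest) in SPI-fed and at 342, 531 and 1568 in CAS-fed rats. Every CAS liver but CAS 6 stood above all SPI livers. The means were 319.6 ± 50.0 in SPI-fed and 775 ± 463 in CAS-fed rats (SD, n = 8 each), a log2 difference of -1.09 (standard error 0.29, adjusted p = 0.0386 from limma). That call was kept in 6 of the 16 fits that left out 1 liver, with an adjusted p of 0.0129 to 0.0758. RT1-Bb, the beta chain, lay at 170.5, 195 and 246 in SPI-fed and at 213, 361 and 786 in CAS-fed rats. Here 6 of 8 CAS livers stood above all SPI livers, and CAS 6 and CAS 7 lay among them. RT1-Bb averaged 204 ± 32.6 in SPI-fed and 421 ± 198 in CAS-fed rats (SD, n = 8 each), and its log2 difference was -0.90 (standard error 0.22, adjusted p = 0.0198 from limma).

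The chains of RT1.D differed by as much on average but did not pass the test. RT1-Da, the alpha chain, lay at 273, 326 and 414 in SPI-fed and at 315, 569 and 1512 in CAS-fed rats, with 6 CAS livers above all SPI livers. The means were 331 ± 43.5 in SPI-fed and 783 ± 464 in CAS-fed rats (SD, n = 8 each), with a log2 difference of -1.03 (standard error 0.30, adjusted p = 0.0616 from limma). RT1-Db1, the beta chain, lay at 92.9, 249 and 291 in SPI-fed and at 217, 378 and 1054 in CAS-fed rats. Its lowest value came from SPI 5 alone, since the other SPI livers held 215 to 291. Means of RT1-Db1 were 229 ± 59.8 in SPI-fed and 511 ± 321 in CAS-fed rats (SD, n = 8 each), with a log2 difference of -0.98 (standard error 0.33, adjusted p = 0.107 from limma). Without SPI 5 the difference was -0.81 (adjusted p = 0.161 from limma).

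**Figure D1:**
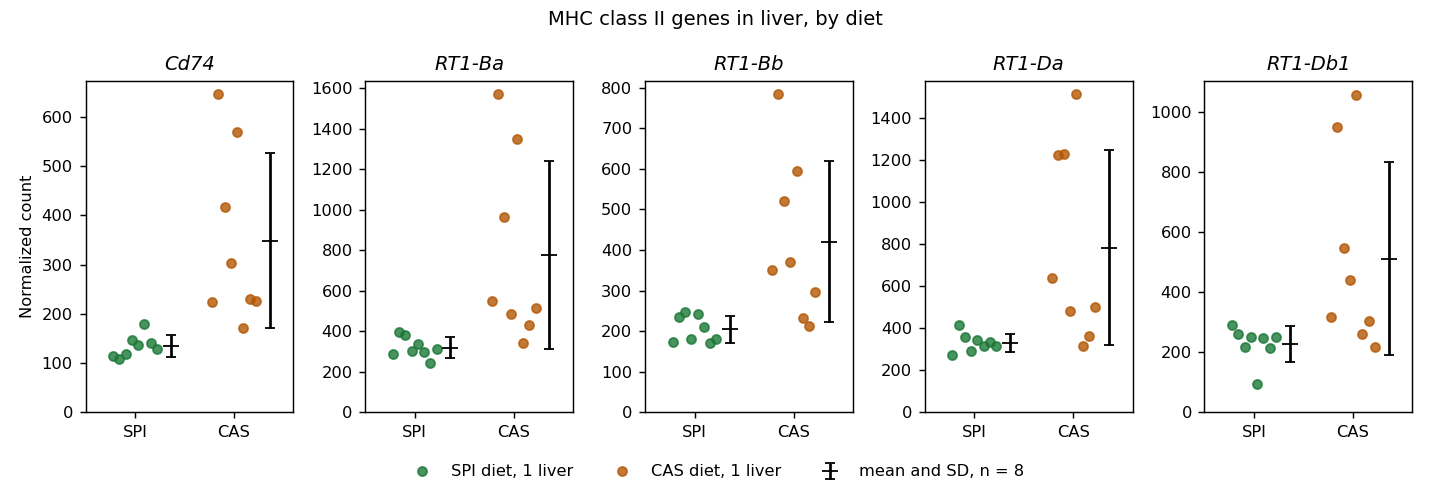
Normalized counts (vertical axis, from 0) of the 5 MHC class II genes, 1 panel per gene and 1 point per liver, with SPI-fed rats at the left and CAS-fed rats at the right of each panel and bars for the mean and SD (n = 8 each). The SPI points lie close together, whereas the CAS points spread upward from near the SPI range, for Cd74 to 646 and for RT1-Ba to 1568.

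Of the 5 genes, 3 were thus called lower in SPI-fed rats (Cd74, RT1-Ba, RT1-Bb) and 0 higher at an adjusted p under 0.05, where limma called 2.9% of all genes tested lower and 1.97% higher. At the study's cutoffs of 0.05 for p, taken here as unadjusted, and 1.3 for the fold, limma had all 5 lower and 0 higher, with 6.75% of genes tested lower. EdgeR and DESeq2 also called 0 of the 5 higher. In none of the 5 did all SPI livers lie below all CAS livers, a pattern found in 0.587% of genes. All 8 SPI livers lay below the CAS median in each of the 5. The share of all genes with that pattern was not computed, and Gbp2 and Cybb, which limma did not call, also had it. The median log2 difference of the 5 genes was -1.03, against 0.01 over all genes tested. Taken gene by gene, an exact two-sided permutation test over the 16 livers (12870 arrangements, smallest possible p 0.000155) gave unadjusted p-values of 0.000311 for Cd74, 0.000777 for RT1-Ba, 0.00171 for RT1-Bb, 0.00249 for RT1-Da and 0.00622 for RT1-Db1. In bulk liver RNA, fewer class II positive cells and less class II RNA per cell cannot be told apart.

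The calls beyond Cd74 depended on which livers and which tool were used. Without the libraries numbered 2 and 8 in both diets, Cd74 alone was called (log2 difference -1.06, adjusted p = 0.0331 from limma, background 0.837%), and RT1-Bb had an adjusted p of 0.0821 and RT1-Ba of 0.120. Without CAS 4, CAS 6 and CAS 7, a choice made after their position had been seen, 4 genes were called lower (background 5.46%), and RT1-Da had a log2 difference of -1.52 (adjusted p = 0.000296 from limma). With edgeR on whole reads 4 were called lower (background 2.95%), and with DESeq2 all 5 (background 4.51%). With the replicate number as a block, 4 were called lower (background 1.86%), among them RT1-Da (adjusted p = 0.0289 from limma). With the lane in the labels as a block, 2 were called, Cd74 and RT1-Bb (background 1.72%), and the adjusted p from limma was 0.0592 for RT1-Ba and 0.0727 for RT1-Da.

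**Figure D2:**
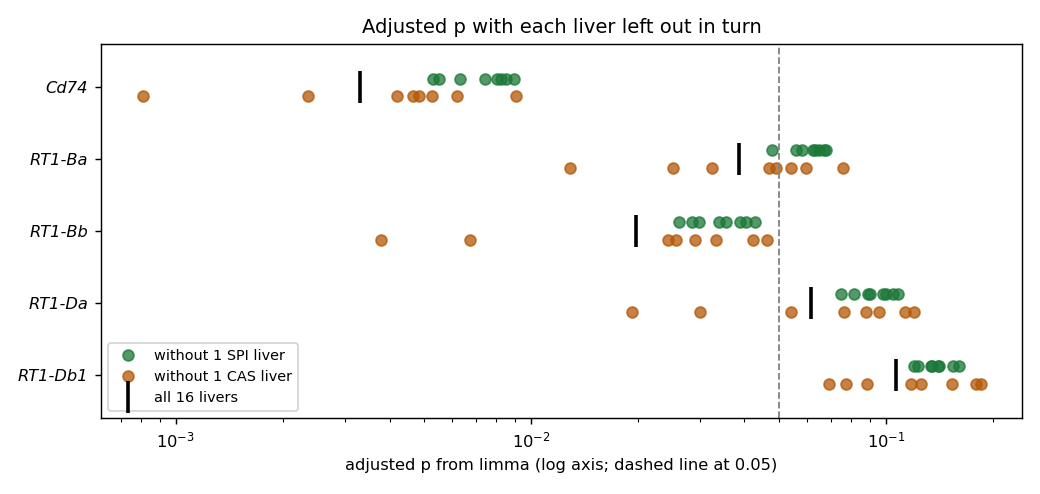
Adjusted p from limma (horizontal log axis, dashed line at 0.05) for each of the 5 genes when 1 SPI liver (upper points) or 1 CAS liver (lower points) was left out, with a vertical bar for all 16 livers. Every point of Cd74 and RT1-Bb lies under 0.05, at most 0.00907 and 0.0463, while RT1-Ba and RT1-Da have points on both sides and RT1-Db1 has none under it.

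The spread among rats was wider on the CAS diet. The SD of the log2 values in SPI-fed against CAS-fed rats was 0.23 against 0.69 for Cd74, 0.23 against 0.83 for RT1-Ba and 0.23 against 0.65 for RT1-Bb. It was 0.19 against 0.88 for RT1-Da and 0.50 against 0.86 for RT1-Db1. The highest of 8 SPI livers was 1.45 to 1.64 times the lowest in 4 of the genes and 3.13 times in RT1-Db1, and the highest of 8 CAS livers was 3.70 to 4.86 times the lowest. For RT1-Da the ratio of the SDs, CAS over SPI, was 4.62, larger than in 99.8% of genes tested, whereas the median gene had a ratio of 1.04. It was 2.85 to 3.63 for Cd74, RT1-Ba and RT1-Bb and 1.72 for RT1-Db1, and the difference in spread was described and not tested. Counting error was smaller than either spread: reads of these genes ran from 90 to 388 in SPI and from 188 to 1942 in CAS libraries, for which counting alone gives a log2 SD of 0.084 to 0.13 and 0.057 to 0.081.

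The same 3 rats were high for every gene. CAS 2, CAS 5 and CAS 3 were the 3 highest livers for each of the 5 genes, at 646, 570.2 and 417 for Cd74 and at 1568, 1350.2 and 963 for RT1-Ba. Averaged over the 5 genes and set against the mean of the 16 livers, their log2 levels were 1.59, 1.53 and 1.03. CAS 4, CAS 1 and CAS 8 stood at 0.31, 0.21 and 0.00, and CAS 7 and CAS 6 at -0.15 and -0.35. The SPI livers held -0.66 to -0.36, below every CAS liver on this average, with CAS 6 close above them. The summed normalized counts of the 5 genes overlapped, at 1106 to 1413 in SPI-fed and 1323 to 5174 in CAS-fed rats.

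**Figure D3:**
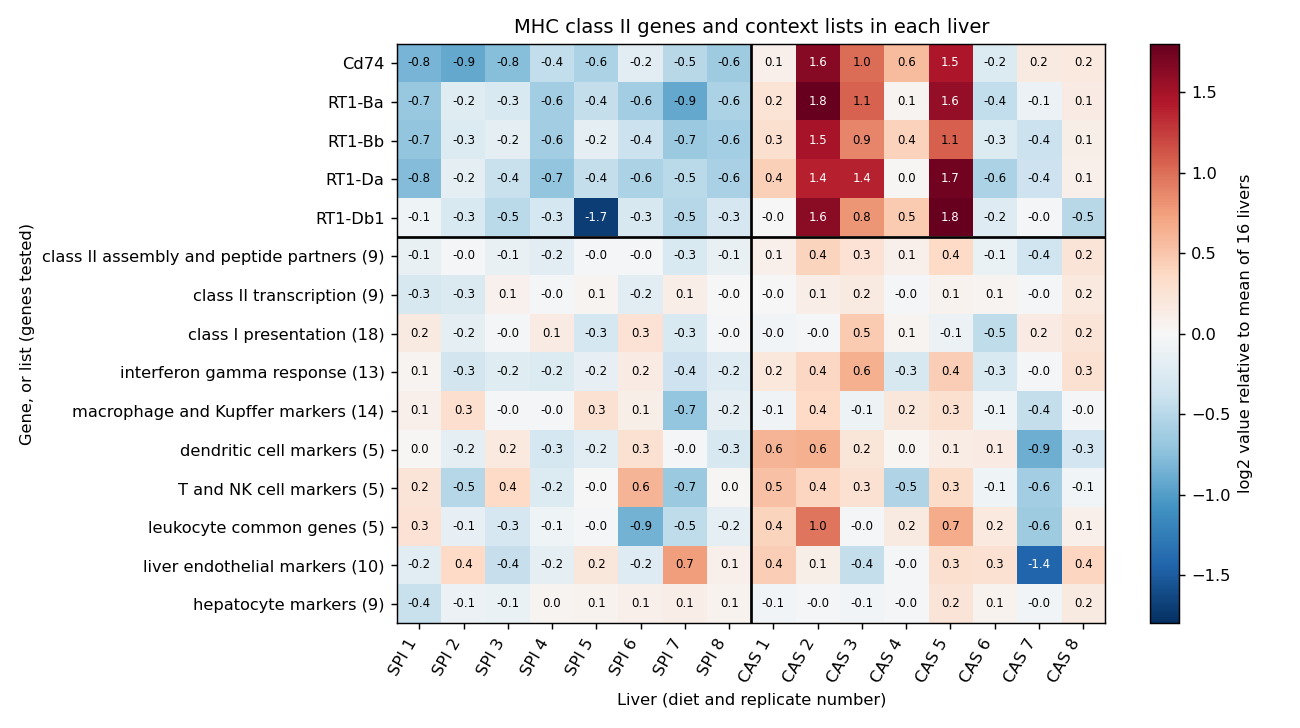
Log2 value relative to the mean of the 16 livers (colour and printed number) in each liver, SPI 1 to SPI 8 at the left and CAS 1 to CAS 8 at the right, for the 5 MHC class II genes and for the mean of the tested genes of each context list. CAS 2, CAS 3 and CAS 5 stand out in the class II rows, with means of 1.59, 1.03 and 1.53. The macrophage list stands at 0.36, -0.09 and 0.28 in the same livers. CAS 2 and CAS 5 are thus also the highest CAS livers for that list, while its SPI livers reach 0.30.

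Within the CAS diet the genes varied together. The relation of Cd74 with each chain and of the chains of a pair was computed within each diet, 12 relations over 8 livers each, with exact permutation tests and Benjamini-Hochberg adjustment. In CAS-fed rats, Cd74 and RT1-Ba had Pearson's r = 0.965 (exact p = 0.000670, adjusted p = 0.00223) and Spearman's rho = 0.833 (exact p = 0.0154, adjusted p = 0.0373). Cd74 with RT1-Bb, RT1-Da and RT1-Db1 gave r = 0.944, 0.909 and 0.955. The pair RT1-Ba and RT1-Bb gave r = 0.953, and RT1-Da and RT1-Db1 gave r = 0.870. All 6 passed the adjusted exact test on the CAS diet. Leaving out CAS 2 and CAS 5, the livers farthest from the median, gave r = 0.873, 0.852, 0.828 and 0.868 for Cd74 with RT1-Ba, RT1-Bb, RT1-Da and RT1-Db1, and 0.884 for RT1-Ba with RT1-Bb. RT1-Da with RT1-Db1 then had r = 0.686 (exact p = 0.119) over the remaining 6 livers, and the exact p of the other 5 relations was 0.0181 to 0.0458. CAS 3, which was also high for every gene, stayed among these livers. The relations without it were not computed, so these values do not show that the genes varied together among the lower CAS livers.

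In SPI-fed rats, where the levels were low and close together, Cd74 had no positive relation with the chains. Its r was -0.534 with RT1-Ba (exact p = 0.171, adjusted p = 0.256), -0.147 with RT1-Bb, -0.371 with RT1-Da and -0.126 with RT1-Db1. Without SPI 2 and SPI 6, the livers farthest from the median of Cd74, r was -0.387, -0.127, 0.090 and -0.278 in the same order. Counting alone gives Cd74 a log2 SD of 0.13 in SPI libraries, against 0.23 observed, which weakens any relation there. RT1-Ba and RT1-Bb, the chains of 1 molecule, kept a relation of r = 0.810 (exact p = 0.0141, adjusted p = 0.0241), and r was 0.831 without the livers farthest from the median, SPI 2 and SPI 7. RT1-Da and RT1-Db1 had r = -0.286. The difference between the diets in these relations was not tested.

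**Figure D4:**
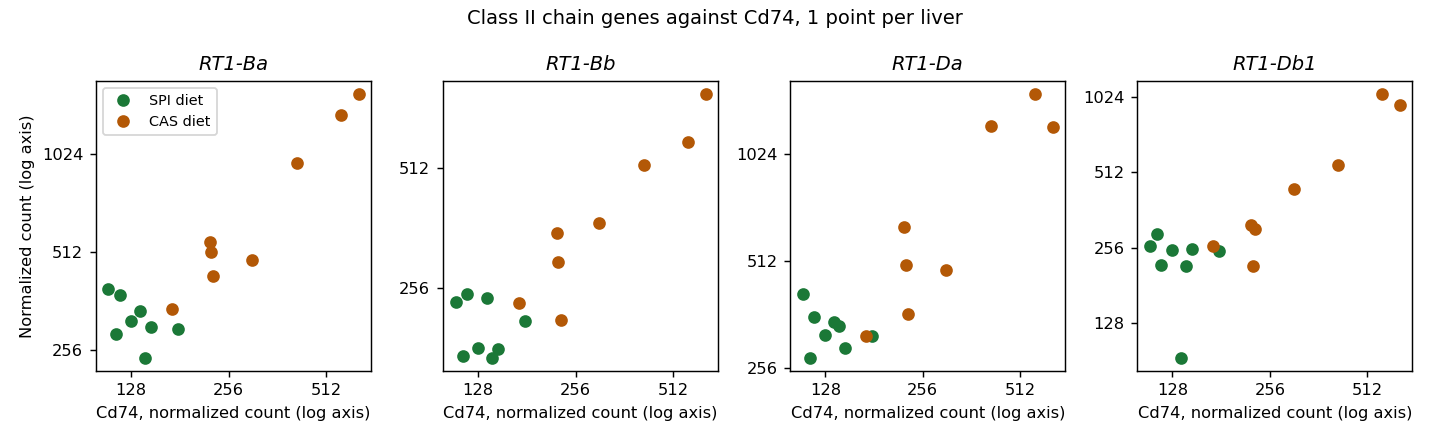
Normalized count of each class II chain gene (vertical log axis) against that of Cd74 (horizontal log axis), 1 point per liver, SPI diet in green and CAS diet in orange. The CAS points rise along a line in each panel (r = 0.965, 0.944, 0.909 and 0.955 from left to right), whereas the SPI points form a cloud at the lower left.

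The proportions among the genes were not found to differ by diet. The log2 ratio of RT1-Ba to RT1-Bb was 0.64 ± 0.13 in SPI-fed and 0.81 ± 0.27 in CAS-fed rats (SD, n = 8 each), a difference of -0.16 (exact permutation p = 0.144, adjusted over 5 ratios p = 0.600). The log2 ratio of RT1-Da to RT1-Db1 was 0.58 ± 0.59 in SPI-fed and 0.62 ± 0.44 in CAS-fed rats (exact permutation p = 0.907, SD, n = 8 each). The ratios of Cd74 to RT1-Ba, of Cd74 to RT1-Da and of RT1-Ba to RT1-Da differed by -0.15, -0.21 and -0.06, with exact permutation p-values of 0.360, 0.255 and 0.588. These ratios were chosen after the values had been seen, and with 8 livers per diet they do not show that the proportions were equal.

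The genes whose pattern was most like that of Cd74 were ranked by the mean of the within-diet Pearson's r over 8 SPI and 8 CAS livers, a description without a p. Lgals3, which encodes the lectin galectin-3 of macrophages, led with a mean r of 0.803, followed by Otud1, a deubiquitinase (0.793), Sec24d, a coat protein of vesicles leaving the endoplasmic reticulum (0.781), and Sparcl1, a matrix protein (0.768). LOC102555223, Tmem170a, LOC100911879 and the laminin chain Lama5 followed at 0.751, 0.747, 0.745 and 0.739. The central 90% of genes tested had a mean r between -0.428 and 0.430. The class II chains themselves ranked at 457 (RT1-Db1), 534 (RT1-Bb), 1271 (RT1-Da) and 1710 (RT1-Ba) by this measure, which gives both diets equal weight. Of these 8 genes, Sparcl1 was called lower in SPI-fed rats, at 306 ± 74.4 in SPI-fed and 474 ± 96.5 in CAS-fed rats (SD, n = 8 each), a log2 difference of -0.64 (adjusted p = 0.0155 from limma). Lgals3 was called too, at 251 ± 92.7 in SPI-fed and 444 ± 173 in CAS-fed rats (SD, n = 8 each), with a log2 difference of -0.79 (adjusted p = 0.0420 from limma), a call kept in 4 of the 16 fits that left out 1 liver. The other 6 were not called.

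Of the proteases, inhibitors and other partners that prepare class II molecules and their peptides, 11 of 20 listed genes were matched in the table and 9 were tested. Of these, 2 were called lower in SPI-fed rats and 0 higher, with a median log2 difference of -0.28 and of -0.18 for the values as deposited. At an unadjusted p under 0.05 limma had 6 lower, and edgeR called 1 and DESeq2 2 lower, with 0 higher in each case. For scale, limma had 6.75% of all genes tested lower at that p with a fold above 1.3. The share without a fold limit was not computed, so counts at that p, here and for the lists below, are descriptions. Ctsl, a cathepsin that cuts the invariant chain, lay at 8044, 8801 and 11110 (lowest, median, highest) in SPI-fed and at 9031, 10865 and 12852 in CAS-fed rats, with overlap between the diets. Its log2 difference was -0.45 (standard error 0.09, adjusted p = 0.00549 from limma) after quantile normalization. It was smaller under the other scalings, at -0.29 for the values as deposited (adjusted p = 0.0476 from limma), -0.28 with upper quartiles (adjusted p = 0.0581 from limma), -0.29 with edgeR (adjusted p = 0.0518) and -0.30 with DESeq2 (adjusted p = 0.0244). Lgmn, the endosomal asparaginyl protease legumain, lay at 988, 1097 and 1231 in SPI-fed and at 1051, 1609 and 2334 in CAS-fed rats, and all 8 SPI livers lay below the CAS median. Its log2 difference was -0.54 (standard error 0.13, adjusted p = 0.0186 from limma). Both calls were kept in all 16 fits that left out 1 liver, but not without the libraries numbered 2 and 8 (adjusted p = 0.0580 for Ctsl and 0.112 for Lgmn from limma). Lgmn also missed the threshold with the lane as a block (adjusted p = 0.0602 from limma). The cathepsins Ctsd and Ctsb had log2 differences of -0.28 and -0.30 (adjusted p = 0.0530 and 0.110 from limma), and of -0.18 and -0.14 for the values as deposited (adjusted p = 0.240 and 0.431 from limma). Ctss, the main protease for this step in antigen-presenting cells, was at -0.01 (adjusted p = 0.981 from limma). Without CAS 4, CAS 6 and CAS 7, 5 of the 9 were called lower (background 5.46%), with Cst3, Ctsd and Ctsb besides. Without CAS 7 alone 4 were called. In fits that left out 1 liver, here and below, the share of all genes called was not computed. On the list average, CAS 2, CAS 5 and CAS 3 were again the 3 highest CAS livers, at 0.40, 0.36 and 0.26.

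Of the regulators of class II transcription, 9 were tested and 0 were called in either direction by limma (median -0.16). The count was 1 at an unadjusted p under 0.05, 0 with edgeR and 1 with DESeq2, in each case Ifngr2 where there was one. Ifngr2, a chain of the interferon gamma receptor, had the smallest p, at 327 ± 71.8 in SPI-fed and 502 ± 174 in CAS-fed rats (SD, n = 8 each), with a log2 difference of -0.56 (adjusted p = 0.0774 from limma). Irf1, a factor induced by interferon gamma, was at -0.30 and the acetyltransferases Kat2b and Ep300 at 0.21 and -0.21, none of them called. Of 5 tested genes of costimulation and antigen uptake, 0 were called by limma (median 0.03), as at an unadjusted p under 0.05, with edgeR and with DESeq2.

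Genes of the interferon gamma response were set beside the class II genes because both are known targets of that cytokine. Of 13 tested, 3 were called lower in SPI-fed rats and 0 higher, with a median log2 difference of -0.30, while 6 were lower at an unadjusted p under 0.05, 4 with edgeR and 5 with DESeq2, and 0 were higher in each case. These were the adhesion molecule Icam1 (-0.48, adjusted p = 0.0270), the guanylate-binding protein Gbp5 (-1.79, adjusted p = 0.0472) and Tap1 (-0.54, adjusted p = 0.0299), all from limma. They kept the call in 7, 3 and 9 of the 16 fits that left out 1 liver, and none was called without the libraries numbered 2 and 8. The count was 0 without SPI 3, SPI 8, CAS 2, CAS 3 or CAS 5, 1 without SPI 2, SPI 4, SPI 5, SPI 6, CAS 1 or CAS 8, 5 without CAS 6, and 6 of 13 without CAS 4, CAS 6 and CAS 7. In the last fit 5.46% of all genes tested were called lower, and the share in the others was not computed. Gbp2 averaged 159 ± 36.8 in SPI-fed and 316 ± 141 in CAS-fed rats (SD, n = 8 each), with a log2 difference of -0.85 (adjusted p = 0.0578 from limma). The list averaged 0.38, 0.64 and 0.44 in CAS 2, CAS 3 and CAS 5.

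Class I presentation, the parallel route for peptides from inside the cell, was covered by 18 tested genes, of which limma called 2 lower and 0 higher (median -0.13). At an unadjusted p under 0.05 it had 1 higher, Psme2, and edgeR and DESeq2 each called 2 higher, the chaperones Calr and Pdia3. Tapbp, the tapasin that holds class I molecules at the peptide transporter, averaged 903 ± 199 in SPI-fed and 1392 ± 235 in CAS-fed rats (SD, n = 8 each), with a log2 difference of -0.66 (adjusted p = 0.00440 from limma). Tap1, a subunit of that transporter, averaged 448 ± 100.2 in SPI-fed and 654 ± 131 in CAS-fed rats (SD, n = 8 each). Psmb9, a subunit of the immunoproteasome, was at -0.58 (adjusted p = 0.154 from limma). B2m, the light chain of class I molecules, was at -0.25 after quantile normalization (adjusted p = 0.309 from limma). As deposited, B2m averaged 14779 ± 2401 in SPI-fed and 15517 ± 3149 in CAS-fed rats (SD, n = 8 each). Its deposited median was higher in SPI-fed rats, at 15066 against 14141. Without CAS 4, CAS 6 and CAS 7, 5 of the 18 were called lower (background 5.46%). The count was 1 without SPI 2, SPI 3, SPI 5, SPI 8, CAS 2, CAS 3 or CAS 5, when Tap1 was not called. The class I list averaged -0.03, 0.47 and -0.11 in CAS 2, CAS 3 and CAS 5. The other 16 RT1 rows of the table had 0 calls from limma and a median log2 difference of 0.18, from -0.75 for RT1-A1 to 1.77 for RT1-N2.

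**Figure D5:**
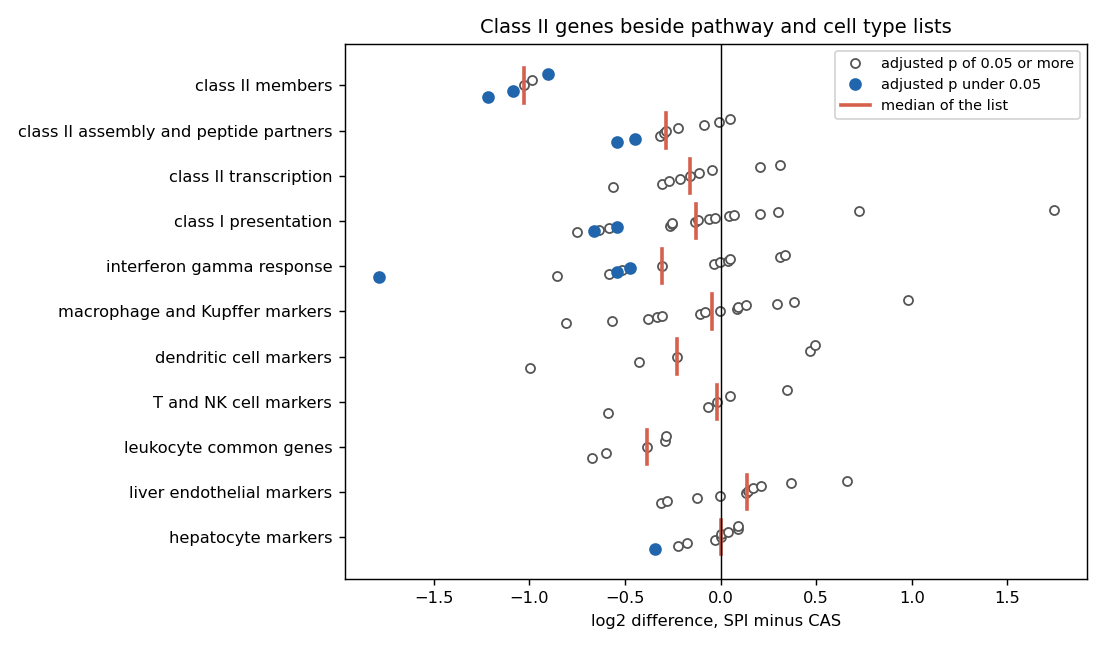
Log2 difference, SPI minus CAS (horizontal axis), of each tested gene in the class II group and in the context lists, 1 point per gene, filled where the adjusted p from limma was under 0.05, with a bar at the median of each list. The 5 class II genes lie between -1.22 and -0.90, while the medians of the other lists shown lie between -0.38 and 0.14, and the stellate cell (median -0.68), cholangiocyte (-0.76), neutrophil (-2.33) and B cell (1.20) lists are not plotted.

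Markers of the cells that carry class II molecules were read beside these values. Of 14 tested macrophage and Kupffer markers, 0 were called by limma (median -0.04, and 0.02 for the values as deposited), against 3 at an unadjusted p under 0.05, 0 with edgeR and 2 with DESeq2, all higher in SPI-fed rats. Their summed normalized count was 6036 to 10173 in SPI-fed and 6920 to 10672 in CAS-fed rats. Cd68, a lysosomal protein of macrophages, averaged 443 ± 86.2 in SPI-fed and 480.3 ± 80.5 in CAS-fed rats (SD, n = 8 each). After quantile normalization 8 of the 14 differences were negative, the sign of the class II genes. The haemoglobin scavenger receptor Cd163 was at a log2 difference of 0.98 (adjusted p = 0.0616 from limma), of the opposite sign. Of 5 tested dendritic cell markers 0 were called by limma (median -0.23). Bst2, an interferon-induced membrane protein, was higher and Fscn1, an actin bundler, lower at an unadjusted p under 0.05, with edgeR and with DESeq2. Their sums, most of which came from Bst2, were 3307 to 7940 in SPI-fed and 2927 to 5175 in CAS-fed rats. Flt3, the receptor for a dendritic cell growth factor, averaged 14.9 ± 7.0 in SPI-fed and 19.3 ± 6.7 in CAS-fed rats, and Itgax was at 0 in 10 of 16 libraries. Of genes common to leukocytes, 5 were tested, 0 were called by limma and all 5 differences were negative (median -0.38). Their sums were 564 to 841 in SPI-fed and 452 to 1591 in CAS-fed rats. Cybb, the NADPH oxidase subunit of phagocytes, averaged 173 ± 36.3 in SPI-fed and 296 ± 133 in CAS-fed rats (SD, n = 8 each, adjusted p = 0.0908 from limma), and was the 1 gene of this list lower at an unadjusted p under 0.05, with edgeR and with DESeq2. The leukocyte list averaged 0.96, -0.02 and 0.66 in CAS 2, CAS 3 and CAS 5, and Ptprc, which defines leukocytes, was at 0 in 8 of 16 libraries.

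For B and plasma cells 3 of 15 listed genes were matched and 1 was tested. Jchain, which joins secreted antibodies, was called higher in SPI-fed rats, at 63.5 ± 23.6 in SPI-fed and 30.2 ± 15.9 in CAS-fed rats (SD, n = 8 each), with a log2 difference of 1.20 (adjusted p = 0.0384 from limma), a call kept in 5 of the 16 fits that left out 1 liver. DESeq2 also called it, whereas the adjusted p was 0.0598 with edgeR, 0.0685 from limma with a block per replicate number and 0.0589 with a block per lane. Blnk was at 0 in 14 and Fcmr in 10 of 16 libraries. T and NK cell markers had 0 limma calls among 5 tested (median -0.02), as with edgeR, with DESeq2 and at an unadjusted p under 0.05, and their sums were 143 to 277 in SPI-fed and 127 to 252 in CAS-fed rats. Liver endothelial markers had 0 limma calls among 10 (median 0.14), 1 at an unadjusted p under 0.05 and 0 with either other tool. That gene, Lyve1, was higher in SPI-fed rats (log2 difference 0.66, adjusted p = 0.0937 from limma). Hepatocyte markers had a median of 0.00 (0.22 for the values as deposited) and 1 lower call among 9, Arg1 of the urea cycle, with 0 calls by edgeR or DESeq2. The 0.00 was that of Alb and was set by the scaling, since quantile normalization gives the highest gene the same value in every library. As deposited, Alb averaged 4273891 in SPI-fed and 3487283 in CAS-fed rats. Arg1 averaged 37486 ± 4932 in SPI-fed and 38475 ± 6323 in CAS-fed rats (SD, n = 8 each). Its log2 difference was -0.34 after quantile normalization (adjusted p = 0.0275 from limma) and -0.03 for the values as deposited (adjusted p = 0.910 from limma). All 9 tested stellate cell and fibroblast markers had negative differences (median -0.68), of which 0 were called by limma, edgeR or DESeq2 and 5 had an unadjusted p under 0.05. They averaged 0.56, 0.33 and 0.36 in CAS 2, CAS 3 and CAS 5. The 2 tested cholangiocyte markers had a median of -0.76 and 0 calls by any of these. The 1 tested neutrophil marker, Lcn2, a lipocalin that hepatocytes are also known to make in inflammation, had a log2 difference of -2.33 (adjusted p = 0.0731 from limma). Lcn2 stood at 2.79, 3.30 and 2.86 in CAS 2, CAS 3 and CAS 5, the livers highest for the class II genes, and edgeR and DESeq2 called it lower. It was also raised in CAS 8, CAS 1 and SPI 3, at 1.45, 1.28 and 0.75. The class II average there was 0.00, 0.21 and -0.42. The part of these cell types and of inflammation in the class II difference was not tested.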

How the data were processed

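RNA of 16 livers was sequenced, 8 per diet, each from a separate rat. The deposited signal is a gene's read count after the authors' division by a size factor of the library. The table also holds the authors' mean signal, their log2 fold change and its standard error, a score column with their Wald statistic, and their p-value and adjusted p-value columns, none of which was used. The submitters' notes name Rnor_6.0, FastQC and DESeq2 without versions, the study's methods CLC Genomics Workbench 8, assembly version 4, RPM and quantile normalization, and the sources differ on read length. Whole reads were recovered by dividing each library by its step (100% of values whole within 0.05), 14901365 to 21632979 per library.

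Differences (SPI minus CAS) were tested two-sided with limma (trend, robust) on quantile-normalized log2(value + 1), for the 8004 genes that reached 10 in 8 or more of 16 libraries, and adjusted by Benjamini-Hochberg. This scale understates the change of low genes. The steps were tested on simulated data. The class II genes and all lists (class II partners and transcription, costimulation, class I, interferon gamma response and markers of 10 cell types or classes) were chosen with earlier results of these data known. Named genes were every class II gene, up to 4 with the smallest p per list, defining markers, and the 8 most like Cd74. Ctss, Cst3, B2m, Psme2, Calr, Pdia3, Blnk, Fcmr, Lyve1, RT1-A1 and RT1-N2 were added after their values were seen. The results of some single genes were left out of the text, though list counts include them. The fit was repeated without quantile normalization, with upper quartiles, with a pseudocount of 0.5 or 8, with the filter dropped or raised to 50, with blocks for replicate number or lane, and with library weights. Whole reads were tested with DESeq2 and with edgeR (quasi-likelihood, TMM). Each library in turn was left out, as were both pairs numbered 2 and 8, since their lanes break the order of the labels' sheet numbers, and, a choice made after seeing the data, CAS 4, 6 and 7. R 4.3.3, limma 3.58.1, edgeR 4.0.16, DESeq2 1.42.0 and statmod 1.5.0 were used.

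The labels give each replicate number 1 lane, with numbers 2 and 7 both in lane 7, and same-numbered libraries had correlations of -0.0950 to 0.0682 after the diet means were removed. Between libraries of 1 diet, chi-square per gene was at least 25.4 (SPI) and 33.2 (CAS), so no library repeats another. Promoters of 300 bases came from RefSeq (GRCr8), where 6 of the 8 symbols matched.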

Additional observations from a re-analysis of the deposited data

Results flagged for a closer look

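RT1-Db1 in SPI 5 stood far from the other SPI livers. It had a normalized count of 92.9 (94 reads), against 215 to 291 in the other 7, and its gap to the nearest, divided by the range of the group, was 0.733, above Dixon's 95% critical value for 8 samples. The other class II genes of SPI 5 lay within the range of the SPI livers, with 136 for Cd74 and 345 for RT1-Da. In all, 10 groups of 8 livers (5 genes in 2 diets) were examined and 1 stood out, where chance gives about 1 in 20. The cause was not tested.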

How the results depend on the processing

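All 150 differences of the 5 class II genes under the alternatives were negative. Their median, -1.03, was -1.24 with edgeR, -1.24 with DESeq2 and -1.48 without CAS 4, 6 and 7, and -1.18 to -0.86 when single livers were left out. The number called lower, 3, was 5 with DESeq2, 1 without the libraries numbered 2 and 8, and 2 to 4 when single livers were left out. For the fits without a single liver, the share of all genes called was not computed. The number called higher was 0 under every alternative run. With the replicate number as a block (paired fit) 4 were called lower, and RT1-Da gained the call with an adjusted p of 0.0289 from limma. Of the same-numbered libraries, 0 of 8 pairs correlated best with their own number. With the lane as a block 2 were called lower, and RT1-Ba and RT1-Da had adjusted p-values of 0.0592 and 0.0727 from limma. LOC102555223 turned to a log2 difference of -0.042 without CAS 4, 6 and 7. The causes were not tested. The class II genes had at least 90 reads in every library, while Itgax was at 0 in 10 and Ptprc in 8 of 16, so changes of these markers could not be read here. Whether depth caused these zeros was not tested.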
